A study of Mus musculus with 24 samples.

Results

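RNA polymerase I subunits and initiation factors were described here through 10 genes, chosen by name: the subunit genes Polr1a, Polr1b, Polr1c and Polr1e and the initiation factor genes Rrn3, Taf1a, Taf1b, Taf1c, Taf1d and Ubtf. They are 10 of the 55471 annotated genes whose messenger RNA was counted, and all 10 passed the filter on low counts in every comparison. The counts came from 24 libraries of mouse embryos, each made from polyadenylated RNA of a pool of 10 embryos. The strain labels start at B6D2F1, a hybrid, and count upward from sample to sample, and B6D2F1 was taken to hold for all.

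In the Ttf1 KO and Zfp622 KO groups, zygotes had received Cas9 protein with 3 guide RNAs against the named gene and were grown in KSOM medium. Founder embryos of this kind can carry several alleles, and the labels do not say which alleles the pooled embryos held or what the wild-type (WT) embryos were injected with. Each genotype was collected as morula and as late 2-cell embryo (L2C), with 4 libraries in each of the 6 groups. Ttf1 encodes a factor that ends transcription of the ribosomal RNA genes, and Zfp622 encodes a factor of large ribosomal subunit maturation.

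RNA polymerase I transcribes a single kind of gene, the repeated ribosomal DNA, and its output sets how much ribosomal RNA a cell can build ribosomes from. Ubtf coats and opens the ribosomal DNA, selectivity factor 1 (the TATA-binding protein with the products of Taf1a, Taf1b, Taf1c and Taf1d) marks the promoter, and Rrn3 carries the initiation-competent polymerase to it. In mouse embryos ribosomal DNA transcription starts around the 2-cell stage, while nucleoli form from precursor bodies. The libraries count messenger RNA of the machinery and do not measure ribosomal RNA.

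Total counts per library ran from 10538723 to 17807596. Markers of the late 2-cell embryo summed to 7.71 to 90.5 CPM (counts scaled to library size) in the morula libraries and to 318 to 686 CPM in the L2C libraries, and markers of the morula to 742 to 1623 CPM in the morula libraries and 92.6 to 117 CPM in the L2C libraries. Ttf1 had a mean of 31.0 CPM in Ttf1 KO morulae, against 52.9 CPM in WT morulae, and 27.1 CPM in Ttf1 KO L2C, against 73.95 CPM in WT L2C. Zfp622 had a mean of 18.4 CPM in Zfp622 KO morulae, against 64.0 CPM in WT morulae, and 60.4 CPM in Zfp622 KO L2C, against 161 CPM in WT L2C. Both targeted genes passed the test in their own knockout at both stages. All Ttf1 KO libraries were sequenced on lane 1 and all WT and Zfp622 KO libraries on lane 2, so lane and Ttf1 KO cannot be told apart.

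The promoters of the 4 subunit genes are shown because these genes were the members that changed at morula. Each is RefSeq sequence of build GRCm38.p6 from 250 bases before to 50 bases after the annotated start, 5′ to 3′ on the gene's strand, with matches to the GC box (GGGCGG), the ETS site (CCGGAAG), the CCAAT box (CCAAT) and the E-box (CACGTG), on either strand, in capitals.
Polr1a, chr6:71908803-71909102, plus strand: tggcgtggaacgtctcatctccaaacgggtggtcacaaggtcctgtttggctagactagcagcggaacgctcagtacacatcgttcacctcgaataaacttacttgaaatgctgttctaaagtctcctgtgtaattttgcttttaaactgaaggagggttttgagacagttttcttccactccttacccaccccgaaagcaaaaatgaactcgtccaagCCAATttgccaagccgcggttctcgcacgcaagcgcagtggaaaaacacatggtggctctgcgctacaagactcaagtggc
Polr1b, chr2:129100746-129101045, plus strand: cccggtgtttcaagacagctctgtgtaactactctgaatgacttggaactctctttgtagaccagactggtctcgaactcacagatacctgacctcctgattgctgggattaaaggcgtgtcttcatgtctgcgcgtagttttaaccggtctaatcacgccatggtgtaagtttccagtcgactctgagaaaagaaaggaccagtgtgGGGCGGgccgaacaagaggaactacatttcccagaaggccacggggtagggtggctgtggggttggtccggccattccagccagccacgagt
Polr1c, chr17:46247996-46248295, minus strand: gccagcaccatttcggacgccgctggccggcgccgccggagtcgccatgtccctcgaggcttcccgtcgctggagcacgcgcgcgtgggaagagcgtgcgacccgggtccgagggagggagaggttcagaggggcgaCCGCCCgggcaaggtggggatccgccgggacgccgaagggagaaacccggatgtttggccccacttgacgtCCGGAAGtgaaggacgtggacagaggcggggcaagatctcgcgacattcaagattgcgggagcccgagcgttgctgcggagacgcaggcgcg
Polr1e, chr4:45018359-45018658, plus strand: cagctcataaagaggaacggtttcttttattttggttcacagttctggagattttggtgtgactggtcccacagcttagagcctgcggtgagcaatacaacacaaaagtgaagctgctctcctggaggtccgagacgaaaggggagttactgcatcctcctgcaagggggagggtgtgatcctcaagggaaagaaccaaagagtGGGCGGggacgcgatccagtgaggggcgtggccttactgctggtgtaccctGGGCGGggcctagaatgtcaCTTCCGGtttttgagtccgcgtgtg

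The ETS site was in the windows of 6 members, namely Polr1c, Polr1e, Rrn3, Taf1a, Taf1b and Taf1c, and in 8.91% of 32544 promoter windows of the same length. In the Rrn3 window an ETS match and a GC box match overlapped. The E-box was in the Rrn3 window alone among the members and in 7.17% of all windows. The GC box was in the windows of all members except Polr1a and Taf1b, and in 35.9% of all windows. The CCAAT box was in those of Polr1a, Taf1a and Taf1c among the members, and in 37.4% of all windows. The TATA box (TATAAA, either strand) was in 0 member windows and in 13.6% of all windows. Of the members lower in Ttf1 KO morulae, Polr1b and Polr1c shared the GC box, and the Polr1c window also held an ETS site. The Polr1a window held a CCAAT box and none of the other motifs. Polr1e, with fold changes of the opposite sign, had the GC box and the ETS site as Polr1c did. Each member was scanned in a single window, although Ubtf had 6 windows and Taf1a and Taf1c had 2 each. The start of the window used lay 222 bases from the start of the counted gene for Taf1b and 150 bases for Ubtf. Motifs at other starts of these genes were not looked at.

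At morula 3 subunit genes passed the test in each knockout and none of the 6 initiation factor genes did. The subunit genes Polr1a, Polr1b and Polr1c were lower in Ttf1 KO morulae than in WT morulae, and Polr1b and Polr1c were lower in Zfp622 KO morulae while Polr1e was higher. Of the 10 members, 3 were lower and 0 higher in Ttf1 KO morulae, where 39.2% of all 14865 genes tested were called (17.9% lower and 21.3% higher). In Zfp622 KO morulae 2 members were lower and 1 higher, where 29.1% of all genes were called (13.5% lower and 15.6% higher). A share of 3 in 10 members is near both backgrounds. The median log2 fold change of the members was -0.02 in Ttf1 KO and -0.05 in Zfp622 KO morulae, beside 0.04 and 0.03 over all genes. Calls are edgeR quasi-likelihood tests with Benjamini-Hochberg adjustment over all genes at an adjusted p of at most 0.05. Both knockouts were set against the same 4 WT libraries, so the comparisons are not independent of each other.

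**Figure D1:**
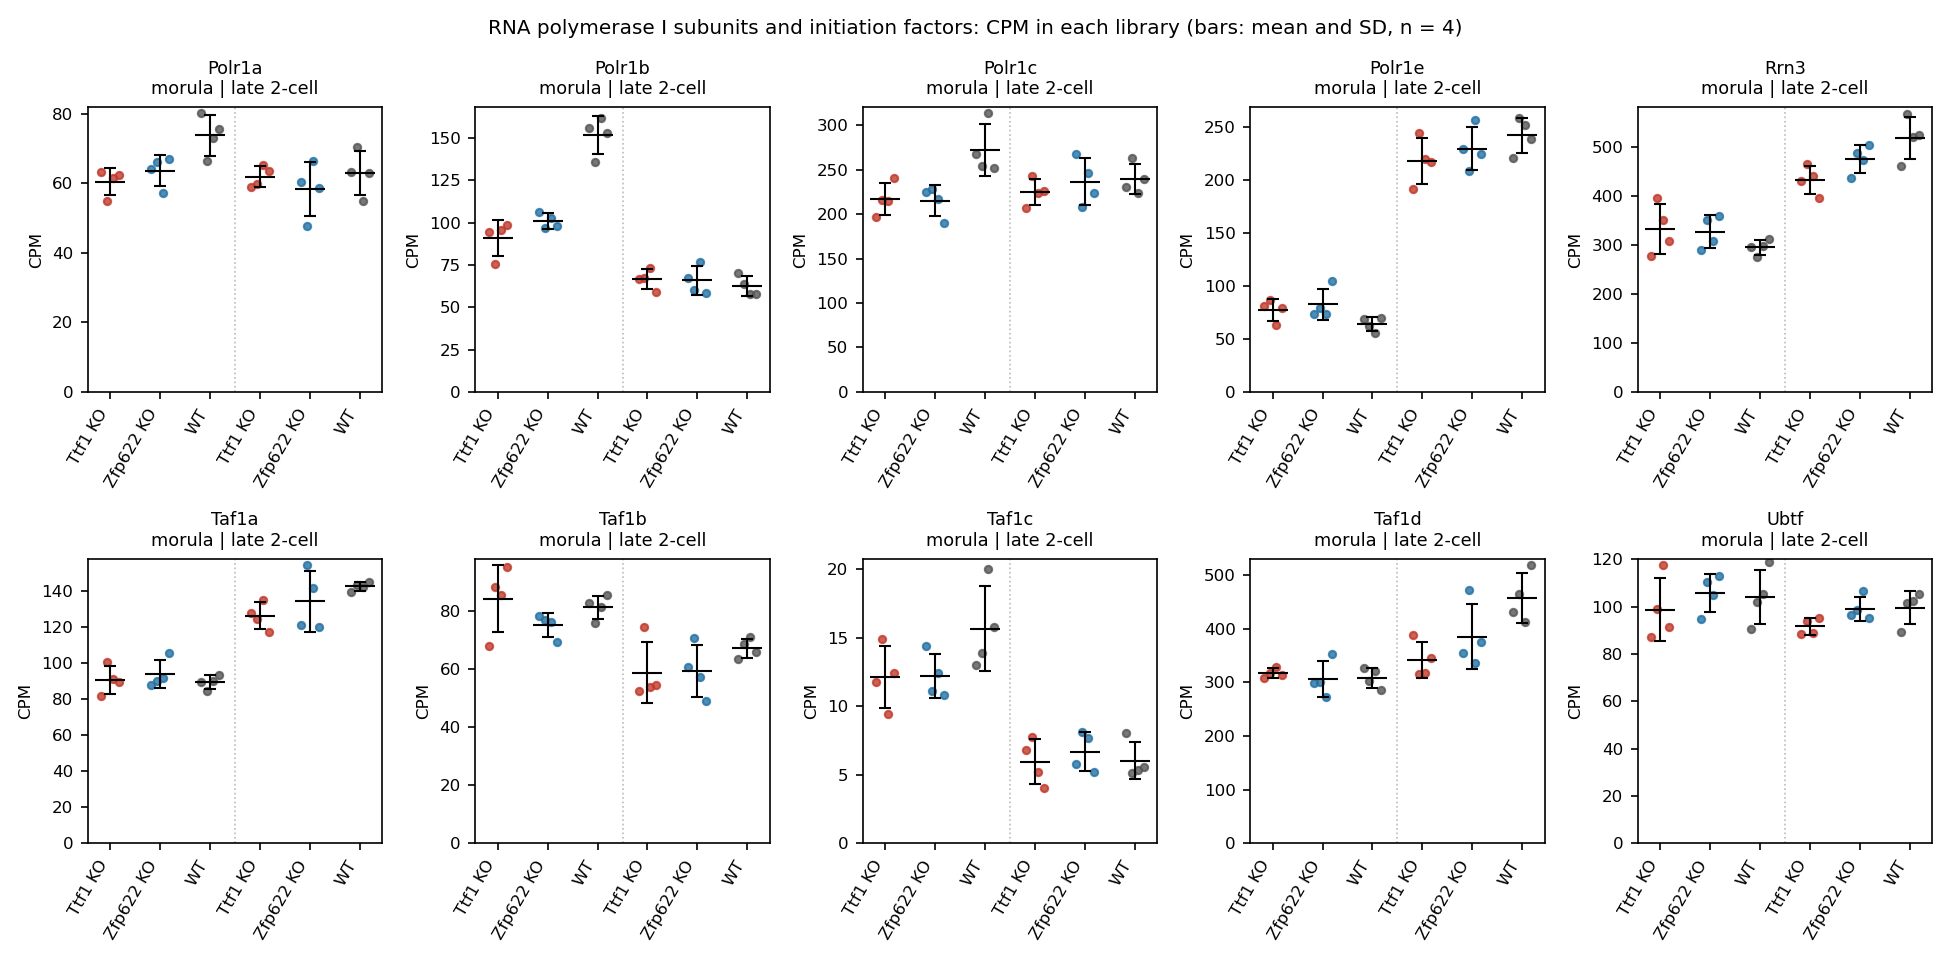
CPM of each member (vertical axis, from 0) in every library, by genotype, with morula left and late 2-cell right of the dotted line. Points are libraries and bars give the mean and SD of 4 libraries. Polr1b had 135.7 to 162.0 CPM in the WT morula libraries, above all 20 other libraries.

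Polr1b encodes the second-largest subunit, which forms the catalytic centre together with Polr1a, and it had the largest log2 fold change of the 10 members in both knockouts at morula. It had 94.3, 75.5, 95.7 and 98.8 CPM in the Ttf1 KO morula libraries and 106.5, 96.6, 103.02 and 98.02 CPM in the Zfp622 KO morula libraries, against 155.9, 135.7, 162.0 and 153.2 CPM in the WT morula libraries. Every knockout library lay below every WT library in both comparisons. Of all genes tested, 17.6% in Ttf1 KO and 15.7% in Zfp622 KO morulae likewise lay below WT without overlap. The log2 fold change of Polr1b was -0.73 ± 0.09 (SE) in Ttf1 KO, a 1.66-fold lower level (edgeR adjusted p = 1.4e-05), and -0.58 ± 0.09 in Zfp622 KO, 1.49-fold lower (adjusted p = 0.00018). At L2C its log2 fold changes were 0.09 ± 0.11 in Ttf1 KO and 0.08 ± 0.11 in Zfp622 KO, with adjusted p of 0.73 and 0.95 by edgeR.

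The change of Polr1b differed between stages. In the fit of all 24 libraries the effect of Ttf1 KO at morula minus that at L2C was -0.83 ± 0.14 on the log2 scale (edgeR adjusted p = 0.00013), and that of Zfp622 KO was -0.66 ± 0.14 (adjusted p = 0.0029). Of all genes, 21.2% had such a difference for Ttf1 KO (12.5% higher and 8.65% lower) and 10.7% for Zfp622 KO (6.45% higher and 4.21% lower). Of the members, 3 were higher and 1 lower for Ttf1 KO, and 0 higher and 1 lower for Zfp622 KO. The median over all genes was 0.11 for Ttf1 KO and 0.06 for Zfp622 KO. In the file headers the alignment names of WT L2C 4, WT morula 3 and WT morula 4 carry an extra number. It is called a second index number here, and the labels do not say what it means. Without these libraries the difference for Zfp622 KO was -0.57, with an edgeR adjusted p of 0.060.

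Polr1b lies on chromosome 2 (GRCm38, 129100995 to 129126594, plus strand), distal to Ttf1. Over the 951 tested genes distal to Ttf1 the median log2 fold change at morula was -0.17 in Ttf1 KO, with 29.4% called lower, and -0.02 in Zfp622 KO, with 14.8% called lower. At L2C the median was -0.11 in Ttf1 KO, while Polr1b stood at 0.09. The part of this shift in the Polr1b value of Ttf1 KO morulae was not tested.

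Polr1a encodes the largest subunit, with most of the active site. It had 63.2, 54.8, 61.5 and 62.4 CPM in the Ttf1 KO morula libraries and 64.1, 66.1, 57.2 and 67.0 CPM in the Zfp622 KO morula libraries, against 80.3, 66.3, 72.8 and 75.5 CPM in the WT morula libraries. The Ttf1 KO libraries did not overlap with WT, and the log2 fold change was -0.28 ± 0.09 (edgeR adjusted p = 0.016). In Zfp622 KO the log2 fold change was -0.20 ± 0.09, which missed the threshold (edgeR adjusted p = 0.085) and passed it in DESeq2 (adjusted p = 0.047). The Zfp622 KO and WT libraries overlapped through the lowest WT library. At L2C the log2 fold changes of Polr1a were -0.03 ± 0.11 in Ttf1 KO and -0.11 ± 0.11 in Zfp622 KO.

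Polr1c encodes a subunit of the assembly platform that RNA polymerase III shares. It had 196.9, 215.6, 215.1 and 240.0 CPM in the Ttf1 KO morula libraries and 224.3, 228.7, 217.5 and 189.9 CPM in the Zfp622 KO morula libraries, against 267.8, 253.5, 314.2 and 252.3 CPM in the WT morula libraries. Neither knockout overlapped with WT, and the log2 fold change was -0.32 ± 0.09 in Ttf1 KO (edgeR adjusted p = 0.0083) and -0.33 ± 0.09 in Zfp622 KO (adjusted p = 0.0095). Without WT morula libraries 3 and 4, the ones with a second index number, 4 subunit calls missed the threshold, with adjusted p of 0.080 (Polr1a) and 0.072 (Polr1c) in Ttf1 KO and 0.089 (Polr1c) and 0.16 (Polr1e) in Zfp622 KO. The log2 fold changes were then -0.29, -0.28, -0.28 and 0.33, and Polr1b still passed in both knockouts.

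Polr1e encodes PAF53, a subunit of the dissociable pair next to the active-site cleft, and its fold changes at morula had the opposite sign. It had 81.6, 87.2, 63.2 and 79.03 CPM in the Ttf1 KO morula libraries and 73.6, 79.6, 73.7 and 104.6 CPM in the Zfp622 KO morula libraries, against 68.8, 62.02, 55.4 and 69.4 CPM in the WT morula libraries. The Zfp622 KO libraries lay above all WT libraries, as did those of 14.9% of all genes tested, with 1 high library, and the Ttf1 KO libraries overlapped with WT. The log2 fold change was 0.38 ± 0.12 in Zfp622 KO (edgeR adjusted p = 0.028) and 0.29 ± 0.12 in Ttf1 KO (adjusted p = 0.075). The call in Zfp622 KO was lost without the libraries with a second index number, as given above, and when any of 4 single libraries was left out: 0.37 (adjusted p = 0.071) without WT morula 2, 0.29 (0.12) without WT morula 3, 0.38 (0.055) without Zfp622 KO morula 2 and 0.24 (0.14) without Zfp622 KO morula 4. In Ttf1 KO the value passed without Ttf1 KO morula 3 (0.37, adjusted p = 0.026).

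**Figure D2:**
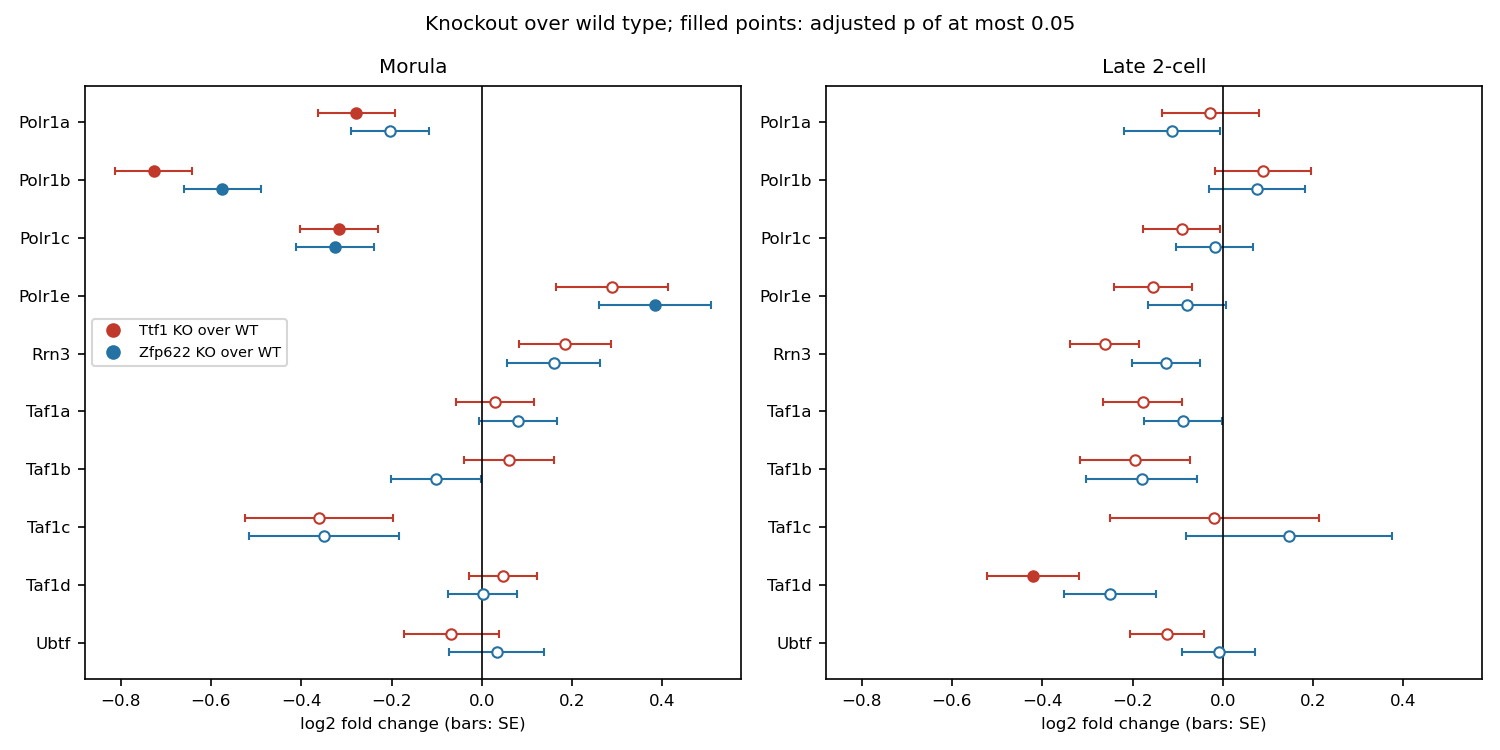
Log2 fold change of each member in Ttf1 KO (red) and Zfp622 KO (blue) over WT, at morula (left) and late 2-cell (right). Bars are SE and filled points passed the test. At morula Polr1b stood at -0.73 and -0.58, and none of the 6 initiation factors was filled; at late 2-cell only Taf1d in Ttf1 KO was.

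The same changes can be written as proportions of the subunit transcripts within a library. The ratio of Polr1b to Polr1a in TPM (counts divided by exon length and scaled to the library) was 3.05, 2.82, 3.18 and 3.24 in the Ttf1 KO morula libraries and 3.40, 2.99, 3.68 and 2.99 in the Zfp622 KO morula libraries, against 3.97, 4.18, 4.55 and 4.15 in the WT morula libraries. The ratio of Polr1e to Polr1a averaged 3.94 ± 0.71 in Ttf1 KO and 3.96 ± 0.56 in Zfp622 KO morulae, against 2.64 ± 0.24 in WT morulae (SD, n = 4 each). For both ratios every knockout library lay on the same side of all WT libraries. At L2C the ratio of Polr1b to Polr1a averaged 2.202 ± 0.205 in Ttf1 KO and 2.32 ± 0.22 in Zfp622 KO, against 2.04 ± 0.21 in WT. These ratios follow from the same counts as the tests above, pair genes whose changes are given there, and were not tested. They are no separate result. The share of other gene pairs that set the groups apart in this way is not given here.

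**Figure D3:**
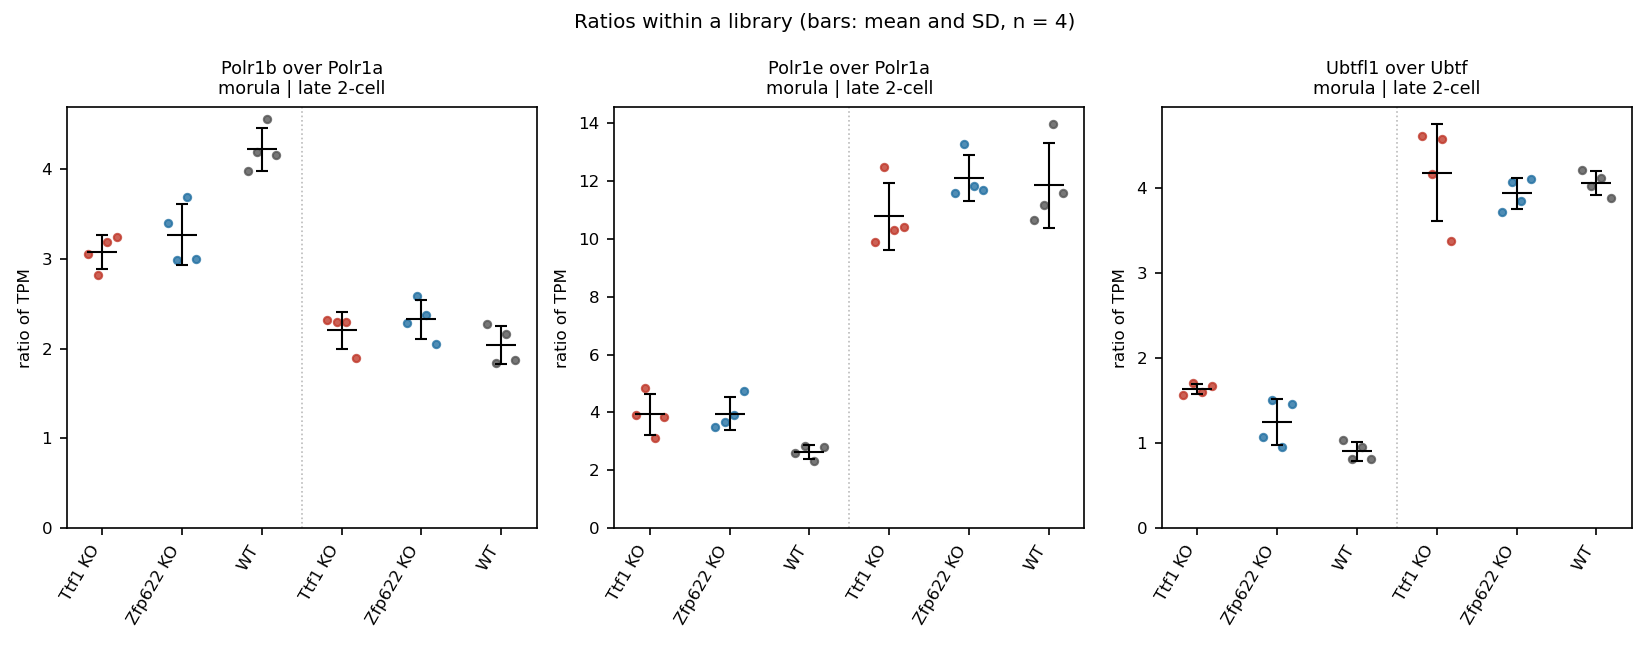
Ratio of TPM within each library (vertical axis, from 0) for Polr1b over Polr1a, Polr1e over Polr1a and Ubtfl1 over Ubtf, by genotype, with morula left and late 2-cell right of the dotted line. Points are libraries and bars give the mean and SD of 4 libraries. The WT morula libraries have the highest Polr1b over Polr1a ratios, from 3.97 to 4.55.

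Of the 6 initiation factor genes, 0 passed the test at morula in either knockout by edgeR or by DESeq2, and 1 (Taf1c) had an unadjusted p under 0.05 in each. Their median log2 fold change was 0.04 in Ttf1 KO and 0.02 in Zfp622 KO. Rrn3 had 278.3, 395.1, 350.7 and 307.7 CPM in the Ttf1 KO morula libraries, against 296.0, 274.8, 297.3 and 312.6 CPM in the WT morula libraries, and its log2 fold change was 0.18 ± 0.10 (edgeR adjusted p = 0.17). Without Ttf1 KO morula 1 it was 0.27, with an adjusted p of 0.031. In Zfp622 KO morulae Rrn3 stood at 0.16 ± 0.10 (adjusted p = 0.26).

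Among the genes of selectivity factor 1, Taf1a, Taf1b and Taf1d had log2 fold changes between -0.10 and 0.08 in both knockouts at morula, with adjusted p of 0.48 or higher. Taf1c was the member with the fewest counts. It had 11.8, 14.9, 9.44 and 12.4 CPM in the Ttf1 KO morula libraries, against 12.97, 13.9, 19.97 and 15.8 CPM in the WT morula libraries. The groups overlapped, and the log2 fold changes were -0.36 ± 0.16 in Ttf1 KO (edgeR adjusted p = 0.091) and -0.35 ± 0.17 in Zfp622 KO (adjusted p = 0.12). In Ttf1 KO the value passed without WT morula 1 (-0.46, adjusted p = 0.049) or without Ttf1 KO morula 2 (-0.49, adjusted p = 0.037). Taf1c shares 584 of its 3490 exon bases with Dnaaf1 on the other strand, and the counts did not use strand. Ubtf had log2 fold changes of -0.07 ± 0.11 in Ttf1 KO and 0.03 ± 0.11 in Zfp622 KO.

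Marker genes also differed between the morula groups. The 6 markers of the late 2-cell embryo summed to 21.3 to 90.5 CPM in Ttf1 KO and 35.8 to 52.8 CPM in Zfp622 KO libraries, against 7.71 to 36.9 CPM in WT libraries, with 2 and 1 of the 6 called higher. The summed level of the 8 morula markers was 742 to 965 CPM in Ttf1 KO and 751 to 1242 CPM in Zfp622 KO libraries, against 1535 to 1623 CPM in WT libraries, with 5 and 4 of the 8 called lower. Over all genes, 21.3% and 15.6% were called higher and 17.9% and 13.5% lower. The 11 blood cell markers summed to 26.1 to 45.0 CPM in Ttf1 KO and 33.1 to 45.5 CPM in Zfp622 KO libraries, against 12.1 to 16.5 CPM in WT libraries; Cd68 led them, S100a8, S100a9, Fcer1g and Hbb-bt were at 0 in all 3 groups, and Hba-a1 passed the test along with Cd68. The 6 sperm markers stayed at or under 2.15 CPM in sum, with Prm2 called higher in both knockouts, and the 8 cumulus and granulosa markers at or under 1.10 CPM. Mitochondrial transcripts made up 3.14% to 3.76% of counts in Ttf1 KO and 2.79% to 3.69% in Zfp622 KO, against 2.24% to 2.45% in WT. The part of these shifts in the changes of the subunit genes was not tested. In pools of whole embryos, fewer cells of a type and less RNA per cell cannot be told apart.

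The other 9 subunit genes of RNA polymerase I split in both directions. In Ttf1 KO morulae 4 were higher and 1 lower, and in Zfp622 KO morulae 3 were higher and 2 lower. Of all genes tested, 21.3% were higher and 17.9% lower in Ttf1 KO, and 15.6% higher and 13.5% lower in Zfp622 KO. Polr2l, Polr2k and Znrd1 were higher in both knockouts. Polr2l and Polr2k encode small subunits common to the nuclear polymerases, and their log2 fold changes were 0.55 ± 0.07 and 0.45 ± 0.08 in Ttf1 KO and 0.43 ± 0.07 and 0.28 ± 0.08 in Zfp622 KO. Znrd1 encodes the small subunit involved in RNA cleavage and stood at 0.30 ± 0.07 and 0.24 ± 0.07. Polr2h, another common subunit, was higher in Ttf1 KO (0.25 ± 0.07). Twistnb, whose product is the stalk subunit that receives Rrn3 in yeast, was lower in both, at -0.41 ± 0.07 in Ttf1 KO (edgeR adjusted p = 0.00043) and -0.31 ± 0.07 in Zfp622 KO (adjusted p = 0.0049). Polr1d, the partner of Polr1c, was lower in Zfp622 KO (-0.20 ± 0.06, adjusted p = 0.027). Over all 13 subunits 4 were higher and 4 lower in each knockout, with medians of -0.004 in Ttf1 KO and -0.072 in Zfp622 KO.

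**Figure D4:**
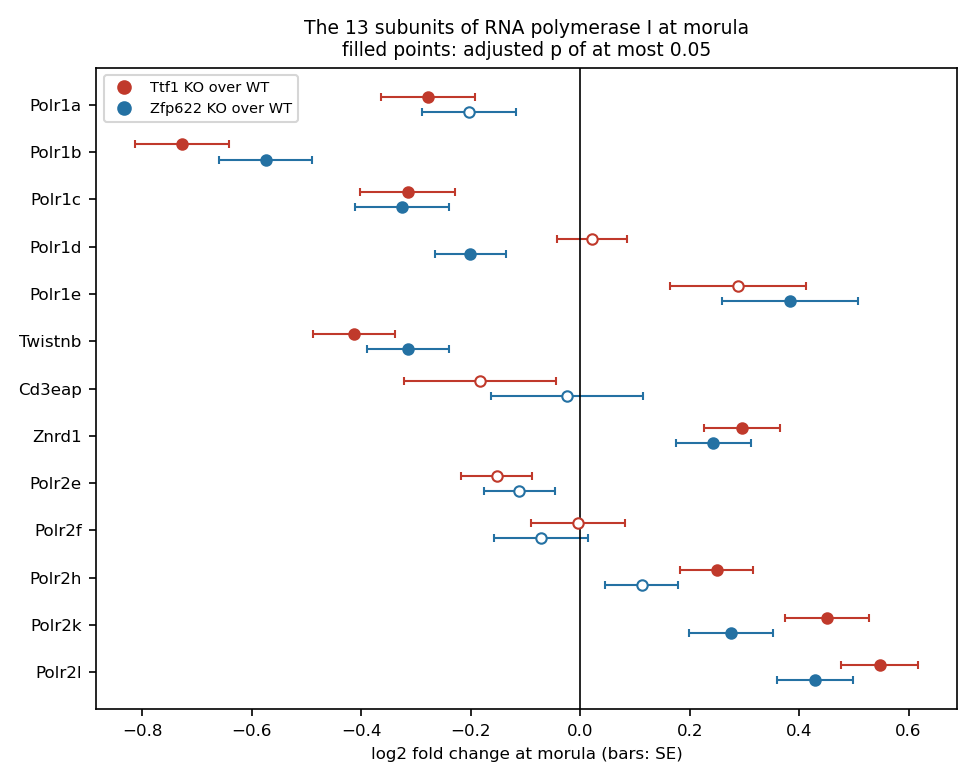
Log2 fold change of the 13 RNA polymerase I subunit genes at morula in Ttf1 KO (red) and Zfp622 KO (blue) over WT. Bars are SE and filled points passed the test. Polr1b, at -0.73 and -0.58, and Polr2l, at 0.55 and 0.43, mark the ends of the range.

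Subunits specific to the other polymerases were also called in both directions, beside calls at 39.2% of all genes in Ttf1 KO and 29.1% in Zfp622 KO morulae. Of the 7 genes specific to RNA polymerase II, 1 was higher and 1 lower in each knockout at morula, with Polr2b, the counterpart of Polr1b, higher at 0.62 ± 0.09 in Ttf1 KO and 0.38 ± 0.09 in Zfp622 KO. Of the 10 tested genes specific to RNA polymerase III, 3 were higher and 2 lower in Ttf1 KO and 2 were higher and 3 lower in Zfp622 KO. The lowest of these was Polr3e, at -1.002 ± 0.135 and -1.118 ± 0.137.

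Of the 14 regulators of ribosomal DNA transcription listed, 4 were higher and 1 lower in Ttf1 KO morulae, and 2 were higher and 1 lower in Zfp622 KO morulae. The shares of all genes called were 39.2% and 29.1%. Rb1, which restrains Ubtf, was higher at 3.56 ± 0.45 in Ttf1 KO and 3.22 ± 0.46 in Zfp622 KO. It averaged 8.04 CPM in Ttf1 KO and 6.39 CPM in Zfp622 KO morulae, against 0.673 CPM in WT morulae, beside 101.3 CPM in WT L2C. Trp53, a repressor of selectivity factor 1, was higher at 0.32 ± 0.08 and 0.30 ± 0.08. In Ttf1 KO the remodeller Smarca5 (0.25 ± 0.07) and the demethylase Phf8 (0.53 ± 0.15) were higher and the topoisomerase Top1 (-0.28 ± 0.08) was lower, and in Zfp622 KO the nucleolar protein Tcof1 was lower (-0.27 ± 0.09). Ubtfl1, a gene of preimplantation embryos related to Ubtf, was higher in both knockouts at morula, at 0.80 ± 0.17 in Ttf1 KO (edgeR adjusted p = 0.0021) and 0.52 ± 0.17 in Zfp622 KO (adjusted p = 0.032). Tbp did not pass in either, at 0.04 ± 0.09 and -0.06 ± 0.09.

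At L2C 1 member passed the test in Ttf1 KO and 0 in Zfp622 KO. Taf1d, a subunit gene of selectivity factor 1, had 388.6, 316.4, 316.8 and 346.2 CPM in the Ttf1 KO L2C libraries and 355.6, 472.8, 336.5 and 374.7 CPM in the Zfp622 KO L2C libraries, against 432.0, 464.1, 412.6 and 518.6 CPM in the WT L2C libraries. All Ttf1 KO libraries lay below all WT libraries, and the log2 fold change was -0.42 ± 0.10 (edgeR adjusted p = 0.044). Of all 16770 genes tested, 1.54% were called in this comparison (0.739% higher and 0.799% lower), and 4.97% lay below WT without overlap. Taf1a did too, with a log2 fold change of -0.18 ± 0.09 that did not pass (adjusted p = 0.33). In Zfp622 KO L2C the Taf1d libraries overlapped with WT, with a log2 fold change of -0.25 ± 0.10 (adjusted p = 0.72).

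The Taf1d call at L2C was not firm. It was lost when any of 7 single libraries was left out, each WT L2C library and Ttf1 KO L2C 2, 3 or 4, with adjusted p of 0.062, 0.090, 0.055, 0.14, 0.12, 0.12 and 0.11 and log2 fold changes of -0.45, -0.42, -0.46, -0.35, -0.39, -0.39 and -0.43. DESeq2 called Taf1d and Rrn3 in Ttf1 KO L2C, where Rrn3 had a log2 fold change of -0.26 (adjusted p = 0.048), against -0.26 ± 0.08 by edgeR (adjusted p = 0.085).

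The deposited annotation counts Taf1d over 8949 exon bases, 83.0% of its 10778-base span on chromosome 9, against 1148 bases in its longest protein-coding transcript. Reads from its introns can therefore enter its count. The gene hosts small nucleolar RNAs, but every base of the 10 small RNA genes annotated inside it is also a Taf1d exon base. Reads that overlap several genes were not counted, so the 0 counts of these genes in all 24 libraries were fixed by the counting. At most 15.0% of its exon bases are shared with other annotated genes, among them Cep295 and 4931406C07Rik on the other strand. That share was summed gene by gene, so bases that lie in several of these genes were counted more than once.

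In Zfp622 KO L2C, where 0.0179% of all genes were called (0.00596% higher and 0.0119% lower), 0 members passed by edgeR or by DESeq2, and 1 (Taf1d) had an unadjusted p under 0.05. The log2 fold changes of the members ran from -0.25 to 0.15 in Zfp622 KO, with a median of -0.084 beside -0.002 over all genes. In Ttf1 KO L2C they ran from -0.42 to 0.09, with a median of -0.139 beside 0.002 over all genes. Of the other subunits, 0 of 9 passed at L2C in either knockout by edgeR, with 3 in Ttf1 KO and 1 in Zfp622 KO at an unadjusted p under 0.05. Among the regulators Top1 was lower in Ttf1 KO L2C (-0.43 ± 0.09, adjusted p = 0.021).

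No member passed the test between the knockouts. Set against Zfp622 KO, 0 members passed in Ttf1 KO at morula or at L2C by edgeR or by DESeq2, and 0 had an unadjusted p under 0.05, where 0.229% and 0.0358% of all genes were called. The log2 differences of Ttf1 KO minus Zfp622 KO ran from -0.15 (Polr1b, SE 0.09) to 0.16 (Taf1b, SE 0.10) at morula and from -0.17 (Taf1d, SE 0.10) to 0.09 (Polr1a, SE 0.11) at L2C. A p that misses the threshold does not show that the knockouts were alike.

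Besides Polr1b, Taf1d, Rrn3 and Polr1e had effects of Ttf1 KO that differed between stages in the fit of all 24 libraries. The effect at morula minus that at L2C was 0.46 ± 0.14 on the log2 scale for Taf1d (edgeR adjusted p = 0.016), 0.43 ± 0.13 for Rrn3 (adjusted p = 0.018) and 0.43 ± 0.16 for Polr1e (adjusted p = 0.045). For all 3, the log2 fold change of Ttf1 KO was above 0 at morula and below 0 at L2C. None of the 3 passed at morula by edgeR, and only Taf1d passed at L2C. The morula value of Taf1d was near 0, from -0.0083 to 0.0707 over 17 alternatives. The difference for Rrn3 was lost without WT L2C 2 (0.38, adjusted p = 0.051), Ttf1 KO L2C 4 (0.39, 0.052) or Ttf1 KO morula 2 (0.34, 0.061). Without the libraries with a second index number those for Taf1d (0.36, adjusted p = 0.14) and Rrn3 (0.47, 0.055) were lost. That for Polr1e was lost in 16 of 23 alternatives, with values from 0.37 to 0.52 and adjusted p from 0.017 to 0.16 over all 23. Among the losses was the omission of any of WT L2C 2, 3 or 4, WT morula 2 or 3, Ttf1 KO L2C 1, 3 or 4 and Ttf1 KO morula 1, 2 or 4. For Zfp622 KO the same differences were 0.24 ± 0.14, 0.27 ± 0.13 and 0.45 ± 0.16, with adjusted p of 0.28, 0.19 and 0.060. That for Polr1e passed without Zfp622 KO morula 1 (0.496, adjusted p = 0.046) or 3 (0.497, 0.047).

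In WT embryos the members changed with stage in both directions. Between WT morula and WT L2C, 4 members were higher and 4 lower, where 84% of all 18864 genes were called (37.9% higher and 46.1% lower). The median over all genes was -0.30 on the log2 scale under the TMM scaling used here, -0.40 under DESeq2 size factors and -0.87 when libraries were scaled by total counts only. The size of a stage change therefore depends on the scaling. A change of scaling moves all genes by nearly the same amount, so the distance from their median stays nearly the same by construction. Scaled by total counts only, 5595 genes were called higher and 10420 lower, against 7141 and 8701 under TMM.

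**Figure D5:**
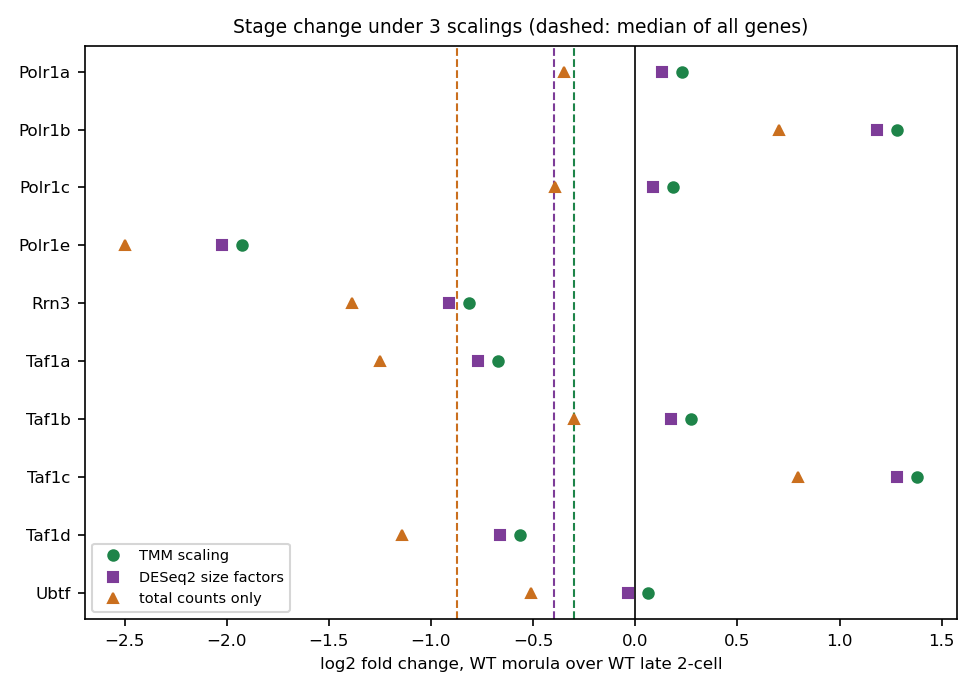
Log2 fold change of each member in WT morula over WT late 2-cell under 3 scalings of the libraries, with the median of all genes under each as a dashed line. The points of Polr1a and Taf1b lie above 0 under TMM (0.23 and 0.27) and below 0 under total counts only (-0.35 and -0.30), and above the dashed line of each scaling.

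Polr1b and Taf1c were higher in morulae and Polr1e was lower, under each of the scalings. Polr1b had 155.9, 135.7, 162.0 and 153.2 CPM in the WT morula libraries, against 70.5, 63.6, 58.1 and 57.6 CPM in the WT L2C libraries, a log2 fold change of 1.28 ± 0.10 and 1.58 above the median of all genes (edgeR adjusted p = 1.1e-12). Taf1c stood at 1.38 ± 0.21, 1.68 above the median (adjusted p = 6.2e-07). Polr1e had 68.8, 62.02, 55.4 and 69.4 CPM in the WT morula libraries, against 221.5, 258.7, 251.9 and 238.5 CPM in the WT L2C libraries, a log2 fold change of -1.92 ± 0.11 (adjusted p = 1.1e-15). In CPM scaled by TMM the libraries of these genes did not overlap between stages, nor did those of Rrn3, Taf1a, Taf1b and Taf1d. That makes 7 of 10 members beside 79.8% of all genes. The direction for Taf1b depended on the scaling, at 0.27 under TMM and -0.30 under total counts only.

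Rrn3, Taf1a and Taf1d were also lower in morulae under each scaling. Rrn3 averaged 295 ± 16 CPM in WT morulae, against 518 ± 44 CPM in WT L2C (SD, n = 4 each), with a log2 fold change of -0.81 ± 0.09. Taf1a stood at -0.67 ± 0.09 and Taf1d at -0.56 ± 0.10. Polr1a (0.23 ± 0.10, edgeR adjusted p = 0.034) and Taf1b (0.27 ± 0.11, adjusted p = 0.027) were called higher under TMM, did not pass under DESeq2 size factors (0.13 and 0.18) and were called lower under total counts only (-0.35 and -0.30). Polr1c (0.19 ± 0.09) and Ubtf (0.06 ± 0.09) did not pass under TMM and were called lower under total counts only, at -0.39 and -0.51, which left 2 members higher and 8 lower. Under DESeq2 size factors 2 members were higher and 4 lower.

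Single libraries also decided the weaker stage calls. Polr1a was lost without WT L2C 1 (0.23, adjusted p = 0.053), WT L2C 3 (0.15, 0.18), WT morula 1 (0.19, 0.10) or WT morula 4 (0.22, 0.065). Taf1b was lost without WT L2C 1 (0.25, 0.077), WT L2C 2 (0.27, 0.057), WT L2C 4 (0.27, 0.052) or WT morula 4 (0.25, 0.063). Polr1c passed without WT L2C 2 (0.22, adjusted p = 0.043), WT morula 2 (0.22, 0.036) or WT morula 4 (0.22, 0.038). Of the other subunits of the polymerase, 7 of 9 were higher and 2 lower in morulae, beside 37.9% and 46.1% of all genes. Ubtfl1 was lower at -2.11 ± 0.13 and Tbp at -1.15 ± 0.08, and the ratio of Ubtfl1 to Ubtf in TPM averaged 0.908 ± 0.109 in WT morulae, against 4.06 ± 0.14 in WT L2C (SD, n = 4 each).

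Polr1b and Polr1e were the member subunits with the largest changes between WT stages. Polr1b averaged 91.1 ± 10.5 CPM in Ttf1 KO and 101 ± 5 CPM in Zfp622 KO morulae, against 152 ± 11 CPM in WT morulae, and 66.5 ± 5.9, 65.9 ± 8.3 and 62.4 ± 6.0 CPM in Ttf1 KO, Zfp622 KO and WT L2C (SD, n = 4 each). Polr1e averaged 77.7 ± 10.3 CPM in Ttf1 KO and 82.9 ± 14.7 CPM in Zfp622 KO morulae, against 63.9 ± 6.6 CPM in WT morulae, and 218 ± 22, 230 ± 20 and 243 ± 16 CPM in Ttf1 KO, Zfp622 KO and WT L2C. For both genes the mean CPM of the knockout morulae lay between that of the WT morulae and those of the L2C groups. This order depends on the scaling: in TPM it held for Polr1e but not for Polr1b. Polr1b averaged 27.7 and 31.7 TPM in Ttf1 KO and Zfp622 KO morulae, against 49.2 TPM in WT morulae. At L2C it averaged 33.5, 32.1 and 30.2 TPM in Ttf1 KO, Zfp622 KO and WT. In CPM this order did not hold for Polr1c, nor for Polr1a in Ttf1 KO. Polr1c averaged 217 ± 18 CPM in Ttf1 KO and 215 ± 17 CPM in Zfp622 KO morulae, against 272 ± 29 CPM in WT morulae, and 225 ± 14, 237 ± 26 and 239 ± 17 CPM in Ttf1 KO, Zfp622 KO and WT L2C, so that the means of the knockout morulae lay below all others. Polr1a averaged 60.5 ± 3.9 CPM in Ttf1 KO morulae, below the 62.9 ± 6.4 CPM of WT L2C. The Polr1a means of Ttf1 KO and Zfp622 KO L2C were 61.8 and 58.3 CPM. In Zfp622 KO morulae Polr1a averaged 63.6 CPM, between the 73.7 CPM of WT morulae and the means of all L2C groups. These comparisons share the WT morula libraries.

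Per exon length the members differed in level by more than an order of magnitude. In WT morulae Polr1c was highest, at 225 TPM, followed by Rrn3 at 129, Taf1a at 69.9, Taf1d at 65.0, Taf1b at 58.3, Polr1b at 49.2, Polr1e at 30.9, Ubtf at 30.0, Polr1a at 11.7 and Taf1c at 8.43 TPM. The libraries of neighbours overlapped between Taf1a and Taf1d, between Taf1d and Taf1b and between Polr1e and Ubtf. In WT L2C the order was Rrn3 at 337, Polr1c at 295, Polr1e at 175, Taf1a at 166, Taf1d at 143, Taf1b at 71.8, Ubtf at 42.6, Polr1b at 30.2, Polr1a at 14.9 and Taf1c at 4.84 TPM, with overlap between Rrn3 and Polr1c and between Polr1e and Taf1a.

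In both knockouts at morula Polr1e stood above Polr1b, at 35.2 and 27.7 TPM in Ttf1 KO and 38.6 and 31.7 TPM in Zfp622 KO, the reverse of their order in WT morulae. Their libraries overlapped in Ttf1 KO. The place of Taf1d depends on its length: per base of its longest protein-coding transcript, a length chosen after the data were seen, it was the highest member in all 6 groups. Other places moved with that length too. In WT morulae Polr1b (37.9 CPM per kilobase) then stood above Taf1b (36.8), and Ubtf (22.2) above Polr1e (21.4). In WT L2C Polr1c (182) then stood above Rrn3 (145), and Taf1a (96.7) above Polr1e (81.3).

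The genes whose pattern over the 6 group means was most like each member's were named by the smallest root mean square difference of centred log2 CPM among 5744 genes with at least 20 CPM. Nelfb (0.041) and Mcm3 (0.048) were closest to Polr1b, Cnot10 (0.016) and Itgb5 (0.035) to Polr1a, Smc3 (0.018) and Cnot4 (0.037) to Polr1c, and Gid4 (0.036) and Zfyve9 (0.037) to Polr1e. Pwwp2a (0.043) and Wbp11 (0.047) were closest to Rrn3, and Ebna1bp2 (0.060) and Calm2 (0.063) to Taf1d. Zcchc17 and Fastkd1 were closest to Taf1a, Rbx1 and Mrpl45 to Taf1b and Ovol2 and Tex2 to Ubtf, with values from 0.023 to 0.049. Each value rests on 6 group means that share the scaling of the 24 libraries.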

How the data were processed

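Messenger RNA was counted in 24 libraries of mouse embryos, read in pairs of 150 bases. Raw counts per gene were deposited by the authors; per the file headers they come from featureCounts 2.0.1 over exons with Ensembl release 99 genes, fragments counted without strand, and HISAT2 2.2.1 alignments to GRCm38 per the submitters' processing notes. The exon length per gene is in the same files. Of 55471 genes 55144 matched a symbol.

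The members and lists were chosen with earlier results of these data known. Groups come from the titles, and the NC in WT titles is unexplained. The genotype labels of the Zfp622 KO libraries and the strain labels count upward from sample to sample and were not used to form groups. Named genes are the members, both targets, listed RNA polymerase I genes past the threshold in a knockout comparison, Ubtfl1, Tbp and the 2 genes most like each member (for Taf1c not reported here); Polr2b and Polr3e were named after their values were seen.

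Each stage (12 libraries) was fitted with edgeR 4.0.16 (TMM, filterByExpr, robust quasi-likelihood, R 4.3.3), and the stage change and differences between stages with all 24. Printed CPM use TMM over all libraries. SE is the log2 fold change over the square root of F. Fits were checked on simulated data. Alternatives were DESeq2 1.42.0, its size factors, scaling by total counts alone, a fit without the filter or without robust estimation, a replicate block, each library left out, omission of libraries with a second index number, and fits on 8 or 24 libraries.

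P-values set a difference between groups against the spread between the 4 pools of embryos in a group. For Ttf1 KO that difference also holds the lane, which the spread within groups does not include.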

Additional observations from a re-analysis of the deposited data

Results flagged for a closer look

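In 2 cases a library stood apart from the other 3 of its group at a member. The 72 combinations of gene and group looked at include genes beyond the members. Chance gives about 1 in 20, so 2 cases are no more than chance gives. Taf1b had 74.3 CPM in Ttf1 KO L2C library 2, against 52.4 to 54.5 CPM in the other libraries of the group. Taf1c had 8.02 CPM in WT L2C library 1, against 5.13 to 5.55 CPM in the other libraries of the group.

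The effect of a knockout differed between morula and L2C for 4 members. For Ttf1 KO the effect at morula minus that at L2C was -0.83 for Polr1b (edgeR adjusted p = 0.00013), 0.43 for Polr1e (adjusted p = 0.045), 0.43 for Rrn3 (adjusted p = 0.018) and 0.46 for Taf1d (adjusted p = 0.016), on the log2 scale. For Zfp622 KO it was -0.66 for Polr1b (adjusted p = 0.0029).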

How the results depend on the processing

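Of 1610 recomputed log2 fold changes of members, 1539 kept their side of the threshold, 55 lost it, 14 gained it and 2 reversed: Polr1a (-0.35) and Taf1b (-0.30) between WT morula and WT L2C under total counts only. Of 161 recomputed counts of members called, 20 moved by over 1.5 times. The count in Ttf1 KO L2C (1) was 2 by DESeq2 and 0 without the robust fit, with the replicate block and without the libraries with a second index number, and ran from 0 to 1 when 1 library was left out. Without the libraries with a second index number it was 1 in Ttf1 KO morulae (3) and 1 in Zfp622 KO morulae (3), and for the differences between stages 1 in Ttf1 KO (4) and 0 in Zfp622 KO (1). The differences between stages ran from 2 to 4 in Ttf1 KO and from 1 to 2 in Zfp622 KO when 1 library was left out, and the stage change in WT from 6 to 9 (8). Fits that leave out libraries compare fewer of them; for the other settings the cause was not tested. With the replicate block 4 members were called in Ttf1 KO morulae, Polr1e (0.29, adjusted p = 0.036) among them, and Taf1d in Ttf1 KO L2C was lost (-0.42, adjusted p = 0.054). The numbers give no pairing: libraries of the same number within a stage had correlations of -0.164 to 0.086 after group means were removed. Taf1c, at 4.07 to 19.97 CPM, is limited most by depth. Over all genes, the 258 calls in Ttf1 KO L2C became 761 by DESeq2, 769 without the filter, 482 with only the 8 libraries compared, 389 with all 24 libraries and 66 without the libraries with a second index number, with as few as 60 when WT L2C 2 was left out. The 3 calls in Zfp622 KO L2C became 21 by DESeq2 and 88 without the filter. Between the knockouts, 6 calls at L2C became 73 and 84, and 34 at morula became 323 and 368, by DESeq2 and without the filter; at morula they were 15 with the replicate block, 9 with only the 8 libraries compared and 57 with all 24. Leaving out 1 library gave 2 (without Ttf1 KO morula 3) to 150 (without Ttf1 KO morula 1) calls between the knockouts at morula and as few as 1 at L2C (without Zfp622 KO L2C 4), 2 to 7 in Zfp622 KO L2C, and as few as 1339 differences between stages for Zfp622 KO (without Zfp622 KO morula 4). Without the libraries with a second index number, the 5833 and 4321 calls in Ttf1 KO and Zfp622 KO morulae became 3553 and 2043, and the 3992 and 2010 differences between stages became 2132 and 646.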
